A study of Mus musculus with 6 samples.

Results

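The serpins are a superfamily of protease inhibitors and related binding proteins, named by clade with a letter. Members were chosen by gene symbol, as Serpin followed by a clade letter from a to i and a number, with pseudogenes left out. By this rule 73 probes of 58 serpin genes were found among 55681 probes, of which 26762 were named for 20284 genes. The gene table held 63 serpin genes, and Serpina16, Serpina1b, Serpina3g, Serpinb9h and Serpine3 had no matched probe. Clade A had 21 genes, clade B 27, and the small clades C to I 10.

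An inhibitory serpin offers a protease a bait loop, and the cut traps both proteins in a dead complex. Clade A serpins are mostly secreted by hepatocytes into plasma, where they inhibit proteases or carry hormones. Clade B serpins lack a classical signal peptide, act mainly inside cells and are found in leukocytes and epithelia.

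Immature female CD-1 mice received fluorene-9-bisphenol (BHPF), a substitute for bisphenol A, at 50 mg per kg body weight, or peanut oil as control, by gavage each day for 3 days. The labels give the mice as 24 days old. It is not settled whether this was their age at the first dose or at collection. Liver, ovary and uterus were taken from both groups, so the 6 groups are control and BHPF in each tissue. RNA of 3 mice was pooled for each group and read on 1 one-colour Agilent array, so a difference between BHPF and control within a tissue has no replicate check. All 6 arrays lay on 1 slide, with controls in one row of positions and BHPF in the other, so array position and treatment cannot be told apart.

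A level is the log2 intensity of a probe minus the 75th percentile of its array. Levels are given below as control, then BHPF. A probe counted as measured on an array where the scanner software called it well above background, and 45 of the 58 genes were measured on at least 1 array (19 of clade A, 17 of clade B and 9 of clades C to I). Measured probes of all kinds made up between 61.3% (liver BHPF) and 74.5% (ovary control) of each array. Where a probe was measured on only 1 array of a tissue, the fold is a bound against the higher of the dim probe's own signal and the lowest measured signal of that array. The 13 genes not well above background on any array were Serpina1f, Serpina3j, Serpinb3b, Serpinb3d, Serpinb9b to Serpinb9g, Serpinb12, Serpinb13 and Serpini2. No serpin probe was saturated.

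The labelled tissues were checked against their markers. Inha, a granulosa cell gene, had levels of 4.35 and 4.40 in the ovary, and Hoxa11, a gene of the uterine stroma, had levels of 2.17 and 2.16 in the uterus and was not well above background in liver or ovary. Foxl2, another gene of the granulosa list, did not mark the ovary, with levels of 4.12 and 4.20 in liver, 3.32 and 3.36 in ovary and 3.33 and 3.61 in uterus. Alb, the albumin gene, had levels of 6.07 and 5.77 in the liver. In the uterus Alb was at -0.92 on the control array and at 3.36 on the BHPF array, and liver genes as a group were higher there (values with the clade A results). The authors' value table and the scanner files name the uterus arrays the other way round: 100% of the values under each uterus heading of the table matched the other uterus scanner array within 0.001 log2 after 1 constant, and 0.3% matched the array of that heading. The arrays do not show which naming is right. Directions in the uterus, here and in all that follows, are those of the scanner files, and the table as headed gives the opposite sign for every uterus ratio called here.

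Many serpin probes differed between tissues, as did many probes of all kinds. With limma over all 6 arrays, which share 1 estimate of the spread, 51 of 57 serpin probes differed between liver and uterus at an adjusted p under 0.05, 35 higher and 16 lower in liver, where 28.7% of all probes were higher and 29.1% lower. Between liver and ovary 34 were higher and 18 lower in liver, beside 32.5% and 30.2% of all probes. Between ovary and uterus 13 were higher and 10 lower in ovary, beside 14.5% and 18.2%. The clades parted by tissue. All 27 tested clade A probes were higher in liver than in uterus, with a median log2 difference of 5.69. Of 18 clade B probes 11 were lower in liver and 1 was higher, with a median of -0.88. The median over all probes was -0.00. Probes measured on any array were tested, so some entered through 1 tissue alone. Serpina7 and Serpina12 entered through liver, and Serpinb5 and Serpinb7 through uterus. Their direction in this comparison was thus largely set in advance. Against the ovary, 24 clade A probes were higher in liver and 3 lower (the pair of probes of Serpina3a and the probe of Serpina5), and for clade B 3 were higher (Serpinb7, Serpinb8 and Serpinb10) and 11 lower. Of these, Serpinb7 was not well above background in either tissue, so no fold is given. Serpinb10 was measured only on the control array of liver (-4.21) and of ovary (-6.15). The lowest measured levels of those arrays were -5.62 and -6.33. Serpinb11, among the 11 lower, was measured on the control ovary array alone, and its bound gave no fold. The p-values rest on 2 arrays a tissue, 1 of each treatment. Their spread holds the part of the BHPF effect that differs between tissues. Without a filter on dim probes, 26 of 29 clade A probes were higher in liver than in uterus and 0 lower. Of 31 clade B probes 2 were higher and 9 lower, with a median of -0.13, beside 21.8% and 22.2% of all probes. Against the ovary, clade A then had 24 higher and 3 lower. Clade B had 10 higher and 10 lower, with a median of 0.41, beside 37% and 24.1% of all probes. Leaving out a uterus array changed the comparison of ovary and uterus: 22 serpin probes were higher and 10 lower in ovary without the BHPF uterus array, beside 9.1% and 11.3% of all probes, and 9 of these 32 had the other sign with all 6 arrays. Without the control uterus array 7 were higher and 25 lower, beside 10.5% and 12.4%, and 2 had the other sign. Between liver and uterus, the clade A median was 6.56 without the BHPF and 4.09 without the control uterus array, with 25 of 26 probes called higher in liver each time.

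**Figure D1:**
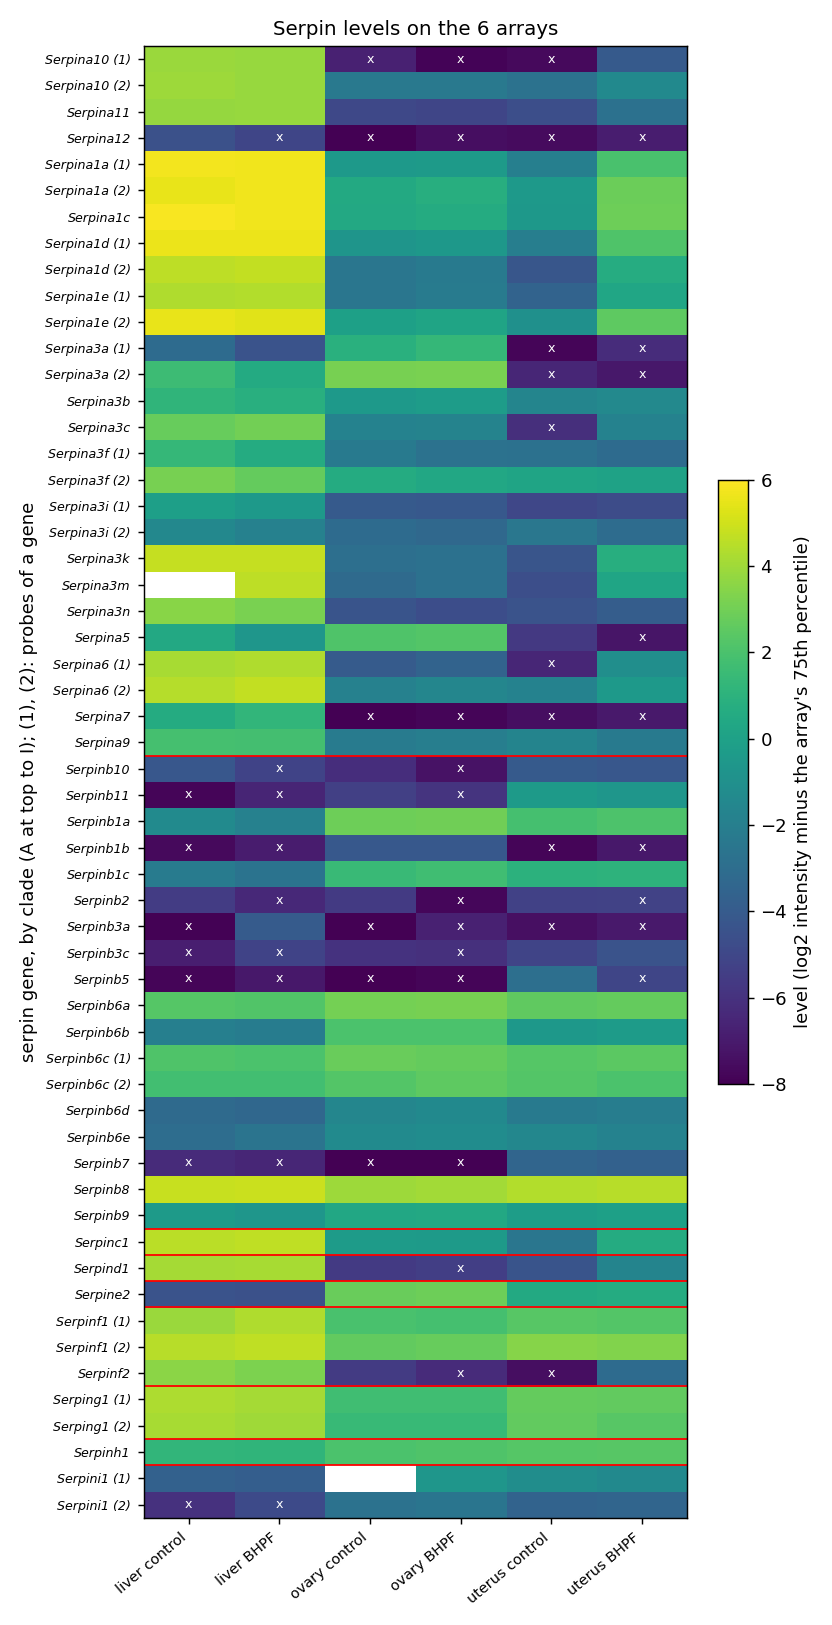
Levels (log2 intensity minus the 75th percentile of the array) of serpin probes measured on at least 1 of the 6 arrays, 1 row a probe, with clades A to I from top to bottom divided by red lines. An x marks a probe not well above background and white an outlier spot that was left out. Most clade A rows are bright in the liver columns, while a few, such as Serpina12 and the dimmer Serpina3a probe, are dim there. Many clade A rows are brighter on the BHPF than on the control array of the uterus.

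Among serpin probes, the share past 2-fold between BHPF and control was highest in the uterus and there in clade A, while over all probes it was highest in the liver. Of 51 serpin probes evaluated in the uterus, 18 had a signal at least 2-fold higher on the BHPF array and 1 a signal at least 2-fold lower, while 1.88% of all 38803 evaluated probes were at least 2-fold higher, 0.773% lower and 2.65% different in either direction. Of the 18, 15 were clade A probes, of 10 genes among 23 evaluated probes, none was of clade B and 3 were of clades C to I. The median log2 ratio in the uterus was 1.82 for clade A, 0.07 for 16 clade B probes and -0.01 for 12 probes of clades C to I, beside 0.01 for all probes. In the liver 1 of 50 serpin probes was at least 2-fold higher and 4 were lower, beside 6.02% and 1.07% of all probes (7.09% different), and the median was -0.08 for clade A and -0.14 for clade B, beside 0.06 for all. In the ovary 0 of 50 serpin probes was higher and 0 lower, beside 0.681% and 0.593% of all probes (1.27% different), and the medians were 0.12 and 0.05, beside 0.00 for all. With 1 array a group no test was made of these ratios or of their difference between tissues. The clade A median in the uterus was 1.59, 1.74 and 1.73 with normexp background correction, the 50th percentile and quantile normalization of the scanner values, 1.36 without a filter on dim probes, 2.43 by gene means, 3.36 with each probe's own signal in place of a bound, and -1.82 with the value table as headed. In the liver normexp left 1 serpin probe higher and 0 lower. Without a filter on dim probes 10 of 72 serpin probes were higher there and 4 lower, beside 7093 and 867 of all 55569 probes. The clade B liver median was then 0.41, where the median over all probes was 0.24. With the 50th percentile in place of the 75th, 1 serpin probe was higher and 6 were lower there, beside 1233 higher and 944 lower of all 36579 probes (2203 and 390 with the 75th), and the liver medians were -0.39 for clade A and -0.46 for clade B, where the median over all probes moved to -0.22.

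**Figure D2:**
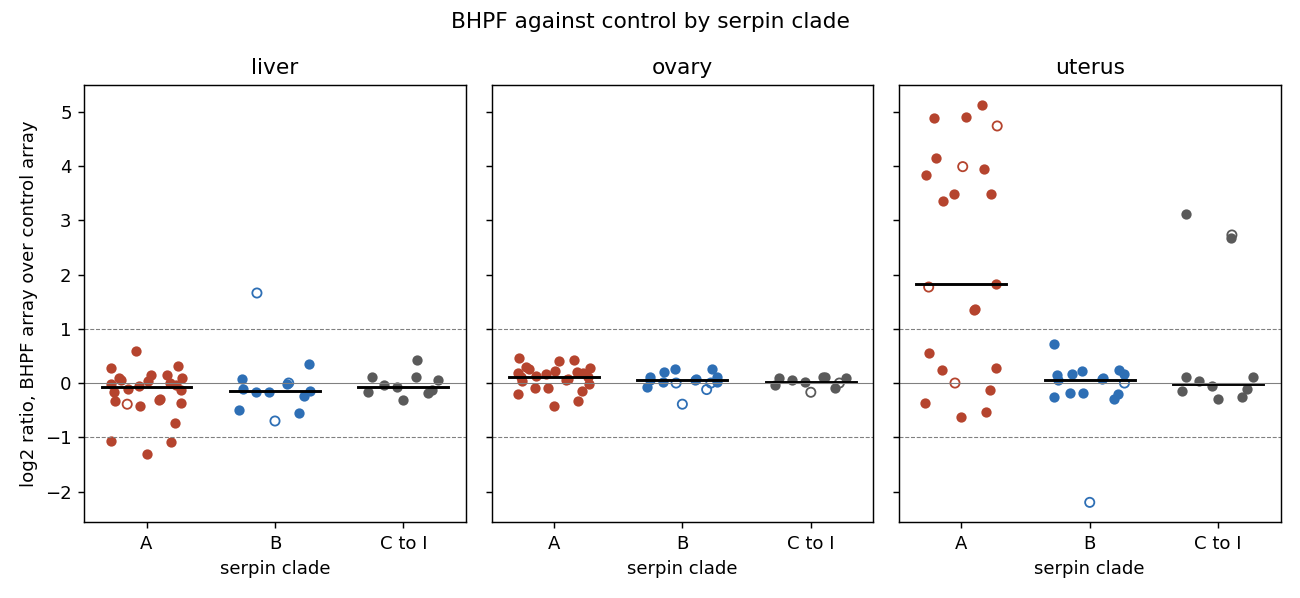
Log2 ratio of the BHPF over the control array for evaluated serpin probes in liver, ovary and uterus, by clade, with filled points measured on both arrays, open points at their bound, a black line at the median of all evaluated probes of the clade and dashed lines at 2-fold. Clade A in the uterus has its median at 1.82, and the other medians lie between -0.14 and 0.12.

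Liver genes were higher on the same uterus array as clade A. Of 20 genes in a list of liver-secreted and hepatocyte genes, 18 were at least 2-fold higher and 0 lower in the BHPF uterus, with a median log2 ratio of 3.62. Over all evaluated probes 1.88% were at least 2-fold higher there and 0.773% lower. Their summed linear level was 7.58 on the control and 57.0 on the BHPF uterus array, with the strongest signal from Trf in the control and from Alb with BHPF (signals of different probes are not amounts of transcript), against 655 and 631 in liver and 14.4 and 15.8 in ovary, where 0 of 18 evaluated genes was past 2-fold. Cps1, Fga and Tdo2 were not well above background on the control uterus array, and all 20 were on the BHPF array. For probes at least 2-fold higher in the uterus, the linear difference between its arrays was also taken as a percent of the control liver level, a measure devised after the data were seen. For 17 serpin probes it was between 0.384% and 14.3% (median 5.61%). For 21 probes of the liver list it was between 0.410% and 15.6% (median 6.42%). Choosing probes by their rise left out liver-bright genes that did not pass 2-fold, such as Serpina3n, Serpina3f, G6pc and Pck1. The likeness of the 2 ranges is thus partly set by that choice, and no conclusion is drawn from it. The part of liver transcripts in the serpin result was not tested, and with 1 array a group liver RNA carried over into the uterus pool and expression in the uterus cannot be told apart.

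**Figure D3:**
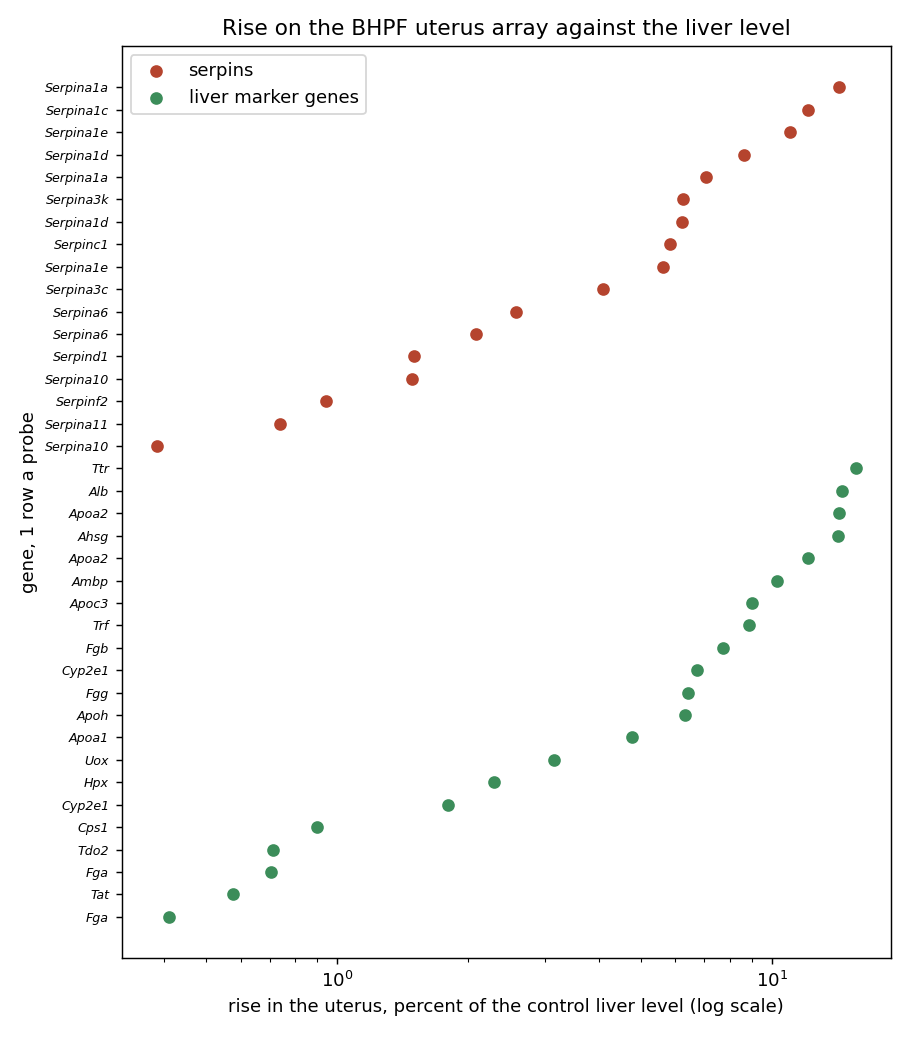
Linear difference of the BHPF minus the control uterus array as a percent of the control liver level (log axis), 1 point a probe, for serpin probes and liver list probes at least 2-fold higher in the BHPF uterus. Serpins lie between 0.384% and 14.3% and liver marker genes between 0.410% and 15.6%. Probes that did not rise 2-fold are left out, so the likeness of the ranges is partly set by the choice of probes.

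The Serpina1 genes encode the mouse forms of alpha1-antitrypsin, the plasma inhibitor of neutrophil elastase. One Serpina1a probe had levels of 5.73 and 5.72 in liver, -0.44 and -0.37 in ovary, and -1.94 and 2.0 in uterus. The other Serpina1a probe had 5.54 and 5.69 in liver, 0.52 and 0.75 in ovary, and -0.48 and 2.88 in uterus. Both were steady in liver and ovary and were higher in the uterus with BHPF, 15.4-fold and 10.3-fold. Serpina1c had levels of 5.84 and 5.72 in liver, 0.46 and 0.59 in ovary, and -0.56 and 2.93 in uterus. The Serpina1d probes had 5.57 and 5.60, and 4.62 and 4.71, in liver, -0.71 and -0.54, and -2.52 and -2.27, in ovary, and -2.03 and 2.12, and -4.24 and 0.66, in uterus. The Serpina1e probes had 4.33 and 4.41, and 5.55 and 5.38, in liver, -2.49 and -2.19, and -0.02 and 0.18, in ovary, and -3.57 and 0.27, and -0.98 and 2.50, in uterus. In the uterus these ratios ranged from 11.2-fold for Serpina1c to 29.8-fold for a Serpina1d probe. The Serpina1 genes are near-identical copies, so a probe may read the RNA of several of them and the values of single genes are uncertain.

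The Serpina3 group holds the mouse relatives of alpha1-antichymotrypsin, and its members differed in the uterus. Serpina3k, the kallikrein-binding protein, had levels of 4.76 and 4.76 in liver, -2.88 and -2.76 in ovary, and -4.33 and 0.80 in uterus, a 35-fold higher signal with BHPF. Serpina3m had 4.61 on the BHPF liver array, where the control spot was an outlier and was left out of the level and of the fit (5 arrays), -3.16 and -2.76 in ovary, and -4.65 and 0.24 in uterus, 29.7-fold higher. Serpina3c had 2.73 and 3.00 in liver, -1.78 and -1.73 in ovary, and in uterus was not well above background in the control and at -1.81 with BHPF, at least 15.9-fold higher. With normexp background correction the uterus log2 ratios were 4.46 for Serpina3k and 3.06 for Serpina3c, against 5.13 and 3.99. The size of these folds thus depends on the processing. That alternative also took the median signal, so the part of the background correction alone was not tested. All 3 were past 2-fold in the uterus and not in the ovary, and Serpina3k and Serpina3c were not in the liver. Serpina3f, by contrast, had levels in uterus of 0.19 and 0.07 on one probe and -2.77 and -3.13 on the other. Its liver levels were 3.14 and 2.71, and 1.32 and 0.59, and its ovary levels 0.59 and 0.39, and -2.29 and -2.72. Neither Serpina3f probe passed 2-fold in any tissue. Serpina3 paralogs may share RNA between probes, so the values of single genes are uncertain.

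Serpina3a was instead measured in ovary and liver. Its brighter probe had levels of 1.61 and 0.54 in liver, 3.14 and 3.18 in ovary, and was not well above background in uterus. The other probe had -3.11 and -4.43 in liver and 0.87 and 1.33 in ovary, and was not well above background in uterus either. Its levels were thus well under those of the brighter probe, most of all in liver, so the liver level of the gene is uncertain. In the liver both were lower with BHPF, 2.09-fold and 2.49-fold, and both were higher in ovary than in liver (log2 liver minus ovary -2.08, 95% interval -2.72 to -1.44, adjusted p 0.000791 with limma, for the brighter). Serpina5, protein C inhibitor, had levels of 0.43 and -0.66 in liver, 2.17 and 2.28 in ovary, and -5.65 on the control uterus array alone. It was 2.12-fold lower in the BHPF liver and higher in ovary than in liver (log2 liver minus ovary -2.34, 95% interval -3.26 to -1.42, adjusted p 0.00228 with limma). With normexp background correction the liver log2 ratios of Serpina5 and of both Serpina3a probes were short of 2-fold, at -0.85, -0.83 and -1.0.

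The hormone carrier and the coagulation inhibitors of clade A were next. Serpina6 is corticosteroid-binding globulin. Its first probe had levels of 4.18 and 4.32 in liver and -3.97 and -3.55 in ovary, and in uterus was not well above background in the control and at -1.06 with BHPF, at least 26.7-fold higher. Its second probe had 4.42 and 4.74 in liver, -1.85 and -1.56 in ovary, and -1.79 and -0.44 in uterus, 2.54-fold higher. The uterus ratio of this gene thus differs between its probes, and with normexp the log2 ratio of the first was 3.95 against 4.74. Serpina10, the protein Z-dependent inhibitor of factor X, had levels of 3.87 and 3.83 in liver on one probe, which was not well above background in ovary or control uterus and stood at -4.03 in the BHPF uterus, at least 3.41-fold higher. The other probe had 3.97 and 3.86 in liver, -2.32 and -2.33 in ovary, and -2.73 and -1.38 in uterus, 2.56-fold higher. Serpina11 had 3.80 and 3.85 in liver, -4.97 and -5.07 in ovary, and -4.62 and -2.80 in uterus, 3.52-fold higher. The remaining clade A genes (Serpina12 or vaspin, Serpina3b, Serpina3i, Serpina3n, Serpina7 or thyroxine-binding globulin, and Serpina9) had log2 ratios from -0.62 to 0.55 over 5 evaluated probes in uterus, -0.39 to 0.59 over 7 in liver and -0.33 to 0.18 over 5 in ovary. Serpina3n, an acute-phase serpin at 3.53 and 3.20 in liver, had -4.40 and -3.85 in uterus and did not pass 2-fold. So 15 of the 23 clade A probes evaluated in the uterus were past 2-fold and 8 were not.

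Among the secreted inhibitors of the small clades, 3 genes of coagulation and fibrinolysis were higher in the BHPF uterus. Serpinc1, antithrombin, had levels of 4.56 and 4.67 in liver, -0.32 and -0.35 in ovary, and -2.49 and 0.63 in uterus, 8.72-fold higher. Serpind1, heparin cofactor II, had 4.12 and 4.18 in liver, -5.61 in the control ovary alone, and -4.39 and -1.70 in uterus, 6.43-fold higher. Serpinf2, alpha2-antiplasmin, had 3.58 and 3.26 in liver, -5.57 in the control ovary alone, and in uterus was measured only with BHPF, at -3.08, at least 6.62-fold higher (log2 2.73, and 2.07 with normexp). Serpinc1 and Serpind1 were higher in liver than in uterus (log2 differences of 5.55 and 7.19, adjusted p 0.00105 and 0.000173 with limma). Serpinf2 was too (adjusted p 0.00116 with limma), and no size is given because only 1 of the 2 uterus arrays measured it.

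The other serpins of clades E to I are made in many cell types, and none of them passed 2-fold in ovary or uterus. Serping1, the C1 inhibitor of complement, had levels of 4.26 and 4.14, 1.68 and 1.72, and 2.68 and 2.62 in liver, ovary and uterus on one probe. Its other probe had 4.15 and 3.98, 1.44 and 1.45, and 2.64 and 2.34. Serping1 was thus higher in liver than in both other tissues and was also measured strongly in uterus. Serpinf1, pigment epithelium-derived factor, had 4.52 and 4.65, 2.64 and 2.76, and 3.48 and 3.34 on one probe and 3.89 and 4.31, 1.99 and 1.89, and 2.37 and 2.26 on the other. Serpinh1, the collagen chaperone HSP47, had 1.20 and 1.16, 2.02 and 2.12, and 2.32 and 2.36. Unlike Serpinf1, it was lower in liver than in uterus (log2 difference -1.16, adjusted p 0.000172 with limma). Serpine2, protease nexin-1, had -4.43 and -4.51 in liver, 2.80 and 2.91 in ovary, and 0.52 and 0.64 in uterus. It was the serpin probe with the lowest liver minus ovary difference (log2 -7.32, 95% interval -7.66 to -6.99, adjusted p 6.55e-06 with limma). Serpini1, neuroserpin, had -3.66 and -3.84 in liver, -0.67 in the BHPF ovary (the control spot was an outlier and the fit used 5 arrays) and -1.11 and -1.36 in uterus on one probe. Its other probe was not well above background in liver and had -2.70 and -2.58 in ovary and -3.54 and -3.43 in uterus.

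The brightest clade B genes were measured in all 3 tissues. Serpinb6a, an intracellular inhibitor of cathepsin G, had levels of 2.33 and 2.19 in liver, 3.05 and 3.12 in ovary, and 2.58 and 2.68 in uterus. Serpinb6c had 2.13 and 2.01, 2.79 and 2.71, and 2.31 and 2.47 on one probe, and 1.77 and 1.76, 2.27 and 2.53, and 2.24 and 2.06 on the other. Serpinb8, which inhibits furin-like proteases, had 4.82 and 4.88, 3.94 and 4.04, and 4.39 and 4.47. Their log2 ratios of BHPF over control lay between -0.19 and 0.26. Serpinb1a, an inhibitor of neutrophil elastase, had -1.30 and -1.86 in liver, 2.93 and 2.98 in ovary, and 1.87 and 2.09 in uterus, and was lower in liver than in ovary (log2 -4.54, 95% interval -5.02 to -4.05, adjusted p 1.46e-05 with limma). Serpinb6 and Serpinb9 paralogs, like Serpinb1 paralogs, may share RNA between probes.

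Some clade B genes were measured mainly in the uterus. Serpinb5, maspin, which does not act as a protease inhibitor, was not well above background in liver or ovary, and in uterus stood at -2.87 in the control and had only a bound with BHPF, at least 4.59-fold lower. It was the only clade B probe past 2-fold in the uterus, and with normexp its log2 ratio was -1.57. Serpinb11 had uterus levels of -0.37 and -0.62, and Serpinb7, megsin, -3.43 and -3.63. Serpinb11 was higher in uterus than in ovary (adjusted p 0.000681 with limma), with no size given because only the control ovary array measured it, at -5.35. Serpinb7 was measured on the uterus arrays alone and was at least 5.69-fold higher there than in ovary (adjusted p 0.000758 with limma). It entered the test only through the uterus, so its p-value is no support for the difference. Neither Serpinb11 nor Serpinb7 passed 2-fold with BHPF in the uterus. In the liver Serpinb3a, a squamous cell carcinoma antigen homolog, was measured only with BHPF, at -3.96, at least 3.16-fold higher, and it was not well above background on the other 5 arrays. With Serpinb7 and Serpinb11 included, the 11 clade B genes not described on every array had log2 ratios from -0.70 to 0.36 over 7 evaluated probes in liver, -0.39 to 0.25 over 10 in ovary and -0.29 to 0.72 over 10 in uterus.

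With the 3 tissues as blocks, limma called 0 of 57 serpin probes different between BHPF and control, beside 0.00227% of all 44117 probes, and 9 serpin probes, of 2332 probes in all, had an unadjusted p under 0.05. The fit asks only for an effect shared by liver, ovary and uterus.

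Other cell types also differed between the arrays. Of 18 neutrophil genes on the array, 15 were at least 2-fold lower in the BHPF liver (median -2.50, summed level 110 and 41.8, all measured on the control array, strongest signal from Lcn2 in the control and Csf3r with BHPF), beside the lower Serpina3a and Serpina5. In uterus 7 of 17 were lower and 1 higher (median -0.69, summed level 53.4 and 42.1), and in ovary 9 of 16 were lower (median -1.28, 16.5 and 12.4). Of 6 evaluated adipocyte genes 3 were lower in the uterus (median -1.05, 3.90 and 1.34, strongest signal from Fabp4, Lep and Plin1 not measured), while in the ovary 2 of 7 were higher (median 0.48, 7.13 and 8.58). Of 16 evaluated stratified epithelium genes 0 was higher and 1 lower in the uterus (median -0.07, 22.3 and 21.2, strongest signal from Trp63, with Dsc3, Dsg3, Krt16, Krt6a and Sprr1b not measured), and of 15 simple epithelium genes 0 was past 2-fold (median 0.06, 68.5 and 71.0), beside the lower Serpinb5. Trp63 did not mark the uterus, with levels of 3.68 and 3.73 in liver, 2.85 and 3.10 in ovary and 3.09 and 3.12 in uterus. Csf3r of the neutrophil list was also strong in every tissue, at 4.28 and 4.12, 3.47 and 3.46, and 3.83 and 3.86. Smooth muscle and stroma genes had a median of -0.06 in the uterus (210 and 219), 0 of 14 past 2-fold, and granulosa and oocyte genes -0.07 (13.6 and 15.4), 0 of 9. Of 9 mast cell and lymphocyte granule genes 2 were higher in the uterus (median 0.44, 6.73 and 9.25). The part of these cell types in the serpin values was not tested, and in whole tissues fewer cells of a type and less RNA per cell cannot be told apart.

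The targets of the serpins were given from lists of their proteases. The shares of all probes at least 2-fold higher and lower were 1.88% and 0.773% in uterus and 6.02% and 1.07% in liver. In ovary they were 0.681% and 0.593%. Of 14 coagulation, kallikrein and complement proteases evaluated in the uterus, 8 were at least 2-fold higher on the BHPF array and 2 lower, with a median log2 ratio of 1.11 and summed levels of 29.7 and 29.5. The lower genes were Cfb and Cfd, at log2 ratios of -1.08 and -2.71, and C1ra and C1s1, targets of the C1 inhibitor, had 0.16 and -0.10. F10 counted as higher by the mean of its probes' log2 ratios (1.05), while its level over both probes, a mean of linear signals, was 2.68 and 2.80, so its probes disagree. Among them F2, prothrombin, the target of antithrombin, had levels of -4.09 and 0.44, and Proc, protein C, -3.62 and -0.52. In the same tissue 1 of 6 plasminogen activation genes was higher, Plg, at -4.08 and 0.92, whose product is the target of alpha2-antiplasmin (median 0.22). Of 8 granule serine proteases 2 were higher in the uterus (median 0.51), of 12 cathepsins and caspases 0 was past 2-fold (median -0.01), of 13 epithelial serine proteases 1 was lower (median 0.14), and of 10 serpin cofactors and partners 2 were higher and 1 lower (median 0.01). In the liver 1 of 15, 0 of 6, 2 of 8, 0 of 12, 0 of 10 and 0 of 9 genes of these 6 lists were lower with BHPF, and 0, 0, 1, 0, 0 and 2 were higher. In the ovary 1 of 12 genes of the coagulation, kallikrein and complement list was higher, Cfd, which is also on the adipocyte list, and 0 genes of the other 5 lists were past 2-fold.

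Promoter sequences of RefSeq (build GRCm38.p6) were searched because the Serpina1 genes were higher together in the uterus. The table held 63 windows for 54 serpin genes, each running from 250 bases before to 50 bases after the gene's start, with 22 windows of clade A, 32 of clade B and 9 of clades C to I. GTTAAT, the core of the element bound by the hepatocyte factor HNF1, was picked after the sequences were seen, and each motif was searched on both strands. GTTAAT lay in 8 clade A windows, 3 clade B windows and 1 of clades C to I, beside 7.1% of all 32851 windows. The clade A genes with it were Serpina1a to Serpina1e, Serpina3c and Serpina7. TGACTCA, an AP-1 element, lay in 4 clade A and 2 clade B windows (5.2% of all), TATAAA, the box bound by the TATA-binding protein, in 6 clade A, 11 clade B and 1 of the other windows (13.6% of all), and GGTCANNNTGACC, an oestrogen response element, in 0 serpin windows (0.07% of all). TTGCNNAA, a C/EBP element, lay in 12 clade A, 4 clade B and 1 of the other windows (10.8% of all), and GTTAATNATTAAC, the palindrome around GTTAAT, in 0 serpin windows (0.00913% of all). A match is a description of letters and not a binding site, and no match says only that these letters are not in the window. The stretches of the Serpina1 genes around GTTAAT follow, all upstream of the start on the minus strand of chromosome 12, with GTTAAT in capitals, to show how alike they are.
Serpina1a (chr12:103863620-103863657): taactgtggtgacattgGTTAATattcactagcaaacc
Serpina1b (chr12:103738193-103738232): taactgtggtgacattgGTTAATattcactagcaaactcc
Serpina1c (chr12:103904955-103904994): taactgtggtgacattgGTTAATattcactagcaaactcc
Serpina1d (chr12:103773634-103773666): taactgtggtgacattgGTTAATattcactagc
Serpina1e (chr12:103956953-103956992): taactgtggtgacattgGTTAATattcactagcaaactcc
Serpina1f (chr12:103695533-103695572): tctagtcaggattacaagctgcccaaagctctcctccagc
The stretch of Serpina1f, which has no GTTAAT in its window and was not well above background on any array, is taken at the median distance from the start of the others' GTTAAT, and Serpina1b had no matched probe.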

How the data were processed

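Members and gene lists were chosen with earlier results of these data known. Per the file headers, the authors scanned 6 one-colour arrays with Feature Extraction 11.5.1.1, whose deposited intensity was background-subtracted within each array; the submitters' processing notes name version 9.1. The authors' value table gave log2 values after a shift per array, whose percentile is not stated; each column differed from a scanner array's log2 values by 1 constant, so it was an alternative only. Table column medians were -1.252 and -1.175 (liver), -1.658 and -1.642 (ovary), and -1.218 and -1.232 (uterus, as headed).

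Here control and outlier spots were left out, log2 intensities were averaged over a probe's spots, and each array's 75th percentile (non-control probes) was subtracted, with no pseudocount. A probe was above background where 0.5 or more of its spots were. Probes of a gene were kept apart; for gene lists their mean was taken. Unversioned transcript accessions gave the gene symbols (RefSeq, GRCm38.p6). The 2-fold threshold is the one the study used, and bounds under 1-fold counted as 0. Tests used limma 3.58.1 in R 4.3.3 (lmFit, eBayes with trend) on tissue and treatment over 6 arrays with 2 residual degrees of freedom, with Benjamini-Hochberg adjustment over all probes above background on any array. Its p-values measure only the spread between these arrays. That spread holds the part of the treatment effect that differs between tissues, and the spread between animals was not measured. The limma fit and the ratios with their bounds were each tested on simulated data. Values on every array are given for serpins past 2-fold in any tissue, for the 3 genes of clades A and B with the strongest control signal in each tissue, and for measured serpins of clades C to I, except 1 gene that is not reported here; Serpina3n, Serpinb7 and Serpinb11 were named after their values were seen.

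Alternatives were normexp (offset 50) on the median signal, as no mean signal was used here, the 50th percentile, quantile normalization, the value table, other filters and bounds, gene means, eBayes without trend, no treatment term and leaving out each array. The value table with its uterus columns exchanged was added after seeing the data. The precision is limited by the number of arrays. The gene lists were liver-secreted and hepatocyte, neutrophil, stratified squamous epithelium, simple epithelium, adipocyte, ovary granulosa and oocyte, smooth muscle and stroma, mast cell and lymphocyte granule, 5 protease lists, and serpin cofactors and partners. Levels, ratios and figures were computed with Python 3.11.15, numpy 2.4.6, pandas 2.3.3 and matplotlib 3.10.9.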

Additional observations from a re-analysis of the deposited data

Results flagged for a closer look

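The pseudogene Serpina4-ps1, which the member rule left out, had a signal on the BHPF uterus array above that on the control array, where it was not well above background: the log2 ratio was at least 4.34. Its levels were 3.99 and 3.78 in liver, -4.28 and -5.09 in ovary, and -1.46 in the BHPF uterus. The other pseudogene left out, Serpina3h, had levels of 1.35 and 1.16 in uterus, a log2 ratio of -0.18. No test was made of either.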

How the results depend on the processing

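Of the 13 main results, the clade A median in the ovary, the clade B median in the ovary, the uterus count of probes past 2-fold and the limma counts for liver against uterus, liver against ovary and BHPF against control changed little in size under every alternative run, the uterus count ranging from 14 to 22. With normexp the liver count past 2-fold was 1 and the clade A uterus median 1.59; without a filter on dim probes the liver and ovary counts were 14 and 5, the clade B medians 0.41 in liver and 0.24 in uterus, and the clade A uterus median 1.36. With each probe's own signal, dim or not, in place of bounds the ovary count was 2 and the clade A uterus median 3.36, and with gene means the latter was 2.43. The 50th percentile gave liver medians of -0.39 for clade A and -0.46 for clade B. Between ovary and uterus 15 serpin probes differed without trend, and 14 to 32 when single arrays were left out (14 without either ovary array, 32 without either uterus array), where the lone array of a tissue is assumed to vary like the others. The cause of these changes was not tested. The value table as headed, which names the uterus arrays the other way round from the scanner files, turned the clade A uterus median to -1.82 and the uterus log2 ratios of 19 probes: Serpina1a -3.94 and -3.36, Serpina1c -3.49, Serpina1d -4.15 and -4.90, Serpina1e -3.84 and -3.48, Serpina3c -3.99, Serpina3k -5.13, Serpina3m -4.89, Serpina6 -4.74 and -1.35, Serpina10 -1.77 and -1.35, Serpina11 -1.82, Serpinc1 -3.12, Serpind1 -2.68, Serpinf2 -2.72 and Serpinb5 2.20. With the columns exchanged, an alternative chosen after seeing the data, 18 were higher and 1 lower. Of all probes past 2-fold in the uterus 70.8% were higher by the scanner files and 29.2% by the table as headed. With each probe's own signal in place of bounds, the share by the scanner files was 56.8%. Of all probes past 2-fold in the liver 85% were higher, against 56.6% with the 50th percentile and 62.8% with quantile normalization. Of all limma calls 49.6% were higher in liver than uterus, 51.8% in liver than ovary and 44.4% in ovary than uterus, against 67.5%, 64.1% and 57.4% with the 50th percentile. Probes not well above background limit the folds to bounds. The limma treatment fit paired control and BHPF arrays by tissue. Within a tissue no paired analysis was possible because each group had 1 array.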
